A study of Mus musculus with 7 samples.

Results

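Protocadherins are the largest group of adhesion proteins in the cadherin superfamily, and here they were followed in the prefrontal cortex of mice with an altered Disc1 genotype. The members are the genes whose Ensembl mouse identifier carries a protein-coding symbol that begins with Pcdh: 69 of the 43626 genes in the table. By name, 14 are Pcdha, 22 Pcdhb, 21 Pcdhg and 12 non-clustered. The rule used symbols and no measured value, but the family was proposed with earlier results of these data known. All RNA was from prefrontal cortex, and the mice were C57BL/6J males at 8 weeks of age. The libraries are 3 of wild type (WT) and 4 of hDISC1AA/+, of which a single library was assigned by the ending of its column name alone. The series title names phosphorylation of DISC1, a scaffold protein of developing neurons, at a pair of serines. The labels do not spell out the hDISC1AA allele or how it was made.

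Clustered protocadherins lie in 3 neighbouring arrays, alpha, beta and gamma. Each variable exon has its own promoter and encodes an extracellular, a transmembrane and a short intracellular part, and in the alpha and gamma arrays it is spliced to constant exons that all genes of the array share. A single neuron uses a small, largely random set of the variable exons, chosen with the help of CTCF, cohesin and DNA methylation, and the resulting surface combination lets its own branches recognise and avoid each other. The C-type genes at the ends of the alpha and gamma arrays are instead used by many neurons at once. Non-clustered protocadherins, most of them in the delta-1 and delta-2 groups, sit alone in the genome and are used in patterns by region, layer and cell type, where they steer axons, dendrites and synapses.

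In these mice no protocadherin gene passed the test between genotypes, and none of all genes did. The members that could be tested were mostly lower in hDISC1AA/+, 53 of 65 (81.5%, beside 52.2% of all genes, a difference not tested). That count was 42 to 60 of 65 without single libraries. It came down to 27 of 65 without a pair of hDISC1AA/+ libraries, an omission chosen after the values were seen. These 2 libraries were lowest in different arrays: one in nearly all Pcdha and Pcdhg genes, the other in most Pcdhb and non-clustered genes. The first was also below every WT library in the Pcdhb and non-clustered sums. The sections that follow give the levels of each array, the genotype comparison, and this split between the libraries.

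Values are normalized counts, which are read counts divided by 1 size factor per library. The 7 libraries held 33512557 to 63845254 reads, WT replicate 1 being the deepest and the others at 36005116 or fewer. Replicates are numbered by record order alone. For 1 of the hDISC1AA/+ libraries, called the unnumbered library, the column number is found in no sample title. The genotype of that library was inferred from the ending of its column name, which the hDISC1AA/+ titles share. The labels do not say that each library came from a separate mouse, so p-values measure only the spread between these samples, which may be technical. Disc1 stood at 46.9, 72.0 and 109 in WT and at 60.3, 81.0, 80.2 and 85.4 in hDISC1AA/+ (log2 fold change 0.08). Gene counts do not tell alleles apart, so these values do not check the genotype labels. Neuronal markers were high in all 7 libraries, with summed normalized counts of 258398 to 292655. WT replicate 1 stood apart in other cell types: the 8 oligodendrocyte markers summed to 137560 there against at most 50618 elsewhere, and the 8 endothelial and mural markers to 3897 against at least 9165. In hDISC1AA/+ replicate 1 the deviation of genes from their mean followed transcript GC content and length (R squared 0.359 over all tested genes, against at most 0.120 in the other libraries). In bulk tissue, fewer cells of a type and less RNA per cell cannot be told apart.

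A promoter element with the core CGCT is a known feature of most, but not all, clustered protocadherin start sites. The same 4 letters were counted, on both strands and with overlapping matches counted apart, in RefSeq promoters of GRCm38.p6 that run from 250 bases before to 50 after the start. Among members, 9 symbols, all of them non-clustered genes, had an entry, with 10 promoters. All 10 held CGCT or its reverse complement AGCG at least once, as did 62.1% of the 32544 promoters of that length. Of these 10, Pcdh10 and Pcdh18 are printed as the promoters with most matches and Pcdh17 as the non-clustered gene with the smallest p between genotypes. Capitals mark CGCT or AGCG, and each sequence is the gene's own strand, 5′ to 3′.
Pcdh10: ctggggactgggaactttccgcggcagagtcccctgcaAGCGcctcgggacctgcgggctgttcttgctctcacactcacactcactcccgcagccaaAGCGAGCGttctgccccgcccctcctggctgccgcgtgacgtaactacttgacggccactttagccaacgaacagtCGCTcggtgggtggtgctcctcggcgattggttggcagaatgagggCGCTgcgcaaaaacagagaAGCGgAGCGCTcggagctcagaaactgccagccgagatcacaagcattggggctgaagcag
Pcdh18: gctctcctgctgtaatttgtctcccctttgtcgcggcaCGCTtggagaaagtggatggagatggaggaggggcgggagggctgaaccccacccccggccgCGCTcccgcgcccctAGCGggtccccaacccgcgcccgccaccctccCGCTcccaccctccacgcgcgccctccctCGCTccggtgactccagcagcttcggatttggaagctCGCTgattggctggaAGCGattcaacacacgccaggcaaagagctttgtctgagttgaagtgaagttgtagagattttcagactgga
Pcdh17: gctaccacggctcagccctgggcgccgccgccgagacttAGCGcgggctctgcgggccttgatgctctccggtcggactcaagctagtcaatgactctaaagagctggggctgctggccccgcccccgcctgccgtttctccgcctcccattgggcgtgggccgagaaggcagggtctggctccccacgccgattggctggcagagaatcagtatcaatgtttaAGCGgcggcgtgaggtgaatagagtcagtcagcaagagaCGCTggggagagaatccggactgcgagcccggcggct
The first, chr3:45378148-45378447 on the plus strand, held 8 matches, a number that 1.7% of promoters reached. The Pcdh18 promoter, chr3:49757267-49757566 on the minus strand, held 7, reached by 3.6%. The Pcdh17 promoter, chr14:84443313-84443612 on the plus strand, held 3, reached by 28.2%. Their GC content was 62.3% in Pcdh10 and 63.0% in Pcdh18, against a median of 53.0% over the promoters. A match describes the letters and is not a measured site.

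The clustered genes occupy chr18:36930184-37841873 of GRCm38, from Pcdha1 to the shared gamma exons. Levels within the family were compared per kilobase of exon, as the mean of the 7 libraries. Because alpha and gamma genes share their last exons, and reads there belong to several genes, the level per kilobase of bases that no other gene covers is given as well. It divides the whole count of a gene by the length that no gene on either strand covers. Reads over those bases alone were not counted. How the authors' counting treated such reads is not given in the sources used here.

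Among the alpha genes the C-type Pcdhac2, which guides the spacing of serotonergic axons, was the most abundant. It reached 260 ± 46.7 normalized counts per kilobase (SD, n = 7), or 505 ± 90.8 per kilobase of unshared bases. The next alpha gene, Pcdha5, reached 46.8 ± 9.60 per kilobase (SD, n = 7), and the ranges of the pair over the 7 libraries did not overlap. Pcdhac2 alone supplied 45.6% to 53.5% of all Pcdha counts of a library. The other C-type alpha gene, Pcdhac1, stayed at 22.2 ± 4.39 per kilobase (SD, n = 7). Of the 13 pairs of neighbours in the order of alpha levels, 2 did not overlap: Pcdhac2 above Pcdha5, and Pcdha8 above Pcdha4. Over unshared bases only 1 of 13 did not, Pcdhac2 above Pcdha12 (114 ± 22.0), and Pcdha8 (7.98) and Pcdha4 (6.27) overlapped.

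The beta genes, which have no shared constant exons, were more even. Pcdhb9 was highest at 164 ± 23.4 normalized counts per kilobase (SD, n = 7), with Pcdhb17 at 146 ± 15.6 and Pcdhb20 at 141 ± 18.8. These 3 overlapped in their ranges. A step followed between Pcdhb20 and Pcdhb7, at 86.1 ± 12.5 per kilobase, where all libraries of the first were above all libraries of the second. Over unshared bases no such step was seen, because Pcdhb12, at 91.1 ± 20.5 there against 33.2 ± 7.46 per kilobase of all exon, came next after Pcdhb20 and overlapped with it. There the same count is divided by 1107 bases rather than 3034, since a gene on the other strand covers the rest. Pcdhb1, at 1.75 ± 1.19 per kilobase, was far below the other beta genes.

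In the gamma array the C-type Pcdhgc5, whose protein binds GABA-A receptors, led with 641 ± 102 normalized counts per kilobase (SD, n = 7), or 1062 ± 168 per kilobase of unshared bases. It held 39.5% to 45.1% of all Pcdhg counts. Pcdhgc3, an inhibitor of Wnt signalling through Axin1 and a regulator of dendrite branching, came next at 141 ± 28.4 per kilobase, without overlap with Pcdhgc5. Pcdhgc4, the member needed for survival of cortical interneurons, reached 86.5 ± 6.71 per kilobase. Outside the C-type genes and Pcdhga10, the gamma genes lay between 21.5 per kilobase for Pcdhga1 and 116 for Pcdhga6. Over unshared bases their range was 40.7 for Pcdhga1 to 271 for Pcdhga11, with Pcdhga6 at 210.

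Per kilobase of all exon bases, 2 non-clustered genes held the highest levels of the family, followed by Pcdhgc5. Over unshared bases Pcdhgc5 (1062) came second, above Pcdh10 (905). Pcdh1, a delta-1 protocadherin, reached 1531 ± 168 normalized counts per kilobase (SD, n = 7), and Pcdh10, a delta-2 protocadherin of axon growth and synapse elimination, 896 ± 115. Below them came Pcdh9 (562 ± 93.8), Pcdh7 (518 ± 125) and Pcdh8 (448 ± 74.6), each overlapping in range with the next of these 3. Of the 11 neighbour pairs, 5 did not overlap: Pcdh1 above Pcdh10, Pcdh10 above Pcdh9, Pcdh8 above Pcdh19, Pcdh20 above Pcdh11x, and Pcdh15 above Pcdh12. Over unshared bases the step between Pcdh10 and the next gene, then Pcdh7 at 656 ± 158, was no longer free of overlap. Pcdh12, the vascular endothelial member, was lowest at 2.12 ± 1.12 per kilobase.

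**Figure D1:**
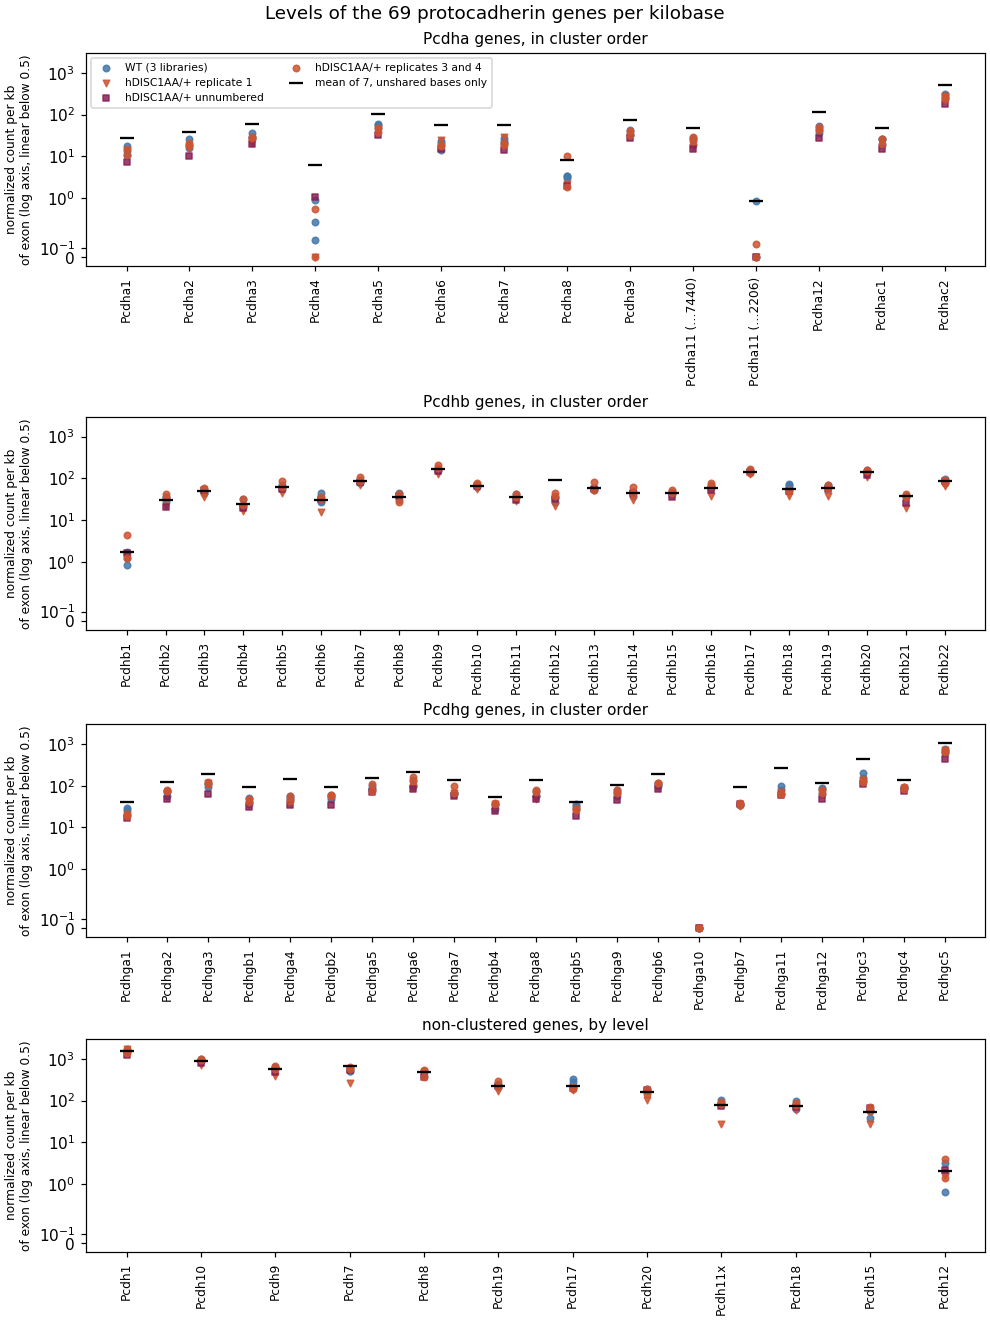
Normalized count per kilobase of exon (log axis, linear below 0.5) for each of the 69 genes, 1 point per library. A black bar gives the mean of the whole count divided by the unshared length. Pcdhac2 stands at 260 above the other Pcdha genes, Pcdhgc5 at 641 above the other Pcdhg genes, and Pcdh1 and Pcdh10 lead the non-clustered genes at 1531 and 896.

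A few members were near 0, and their annotation overlaps other genes. Pcdhga10 was at 0 in all 7 libraries; none of its 2613 first-exon bases is free of another gene, since the antisense Gm26672 covers them all. Pcdha4 had 0 to 6.23 normalized counts, with 404 of 2904 first-exon bases unshared, and the overlapping Gm42416 on the same strand was itself at 0 everywhere. The symbol Pcdha11 is carried by 2 identifiers. ENSMUSG00000102206 had 0 to 6.54 counts, and 768 of its 3323 first-exon bases are unshared. The other, ENSMUSG00000007440, had 78.9 to 156 counts, and its first exon lies where RefSeq places Pcdha10. Of the members too low to test, only Pcdhb1, at 2.18 to 11.3 counts, has a first exon that no other gene covers. Whether the overlaps lower these counts was not tested, and the strand setting of the counting is not given in the sources used here. These 4 genes, Pcdha4, Pcdha11 (ENSMUSG00000102206), Pcdhb1 and Pcdhga10, did not reach 10 normalized counts in 3 libraries and were not tested, which left 12 Pcdha, 21 Pcdhb, 20 Pcdhg and 12 non-clustered genes.

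The genotype comparison asked whether any of these 65 genes differed between hDISC1AA/+ and WT. By limma with Benjamini-Hochberg adjustment over 17670 genes, 0 of 65 passed the threshold of 0.05, beside 0% of all genes, and the smallest adjusted p was 0.974. At an unadjusted p under 0.05 the count was 3 of 65 (4.62%), beside 2.44% of all genes, and edgeR and DESeq2 also passed 0 members. For 62 of 65 genes (95.4%) both 95% confidence limits were within a 2-fold change, beside 77.4% of all genes. For 30 of 65 they were within 1.5-fold, beside 9550 of the 17670 genes. The groups did not overlap in 2 of 65 genes (3.08%), beside 5.04% of all genes.

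Signs leaned one way. The log2 fold change was under 0 in 53 of 65 members (81.5%), beside 52.2% of all genes, with a median of -0.14 against -0.01 over all genes. By array, it was under 0 in 12 of 12 Pcdha (median -0.23), 15 of 21 Pcdhb (-0.14), 16 of 20 Pcdhg (-0.09) and 10 of 12 non-clustered genes (-0.14). Within the non-clustered genes this held for 4 of 4 delta-1 and 5 of 5 delta-2 members and for 1 of the other 3. Members of an array share libraries, regulation and in part exons, so these counts are not counts of independent genes, and no test was made of them. Without hDISC1AA/+ replicate 1 and the unnumbered library, an omission chosen after the values were seen, 27 of 65 were lower and the median was 0.06. Without the unnumbered library alone 42 of 65 were lower, with 9 of 12 Pcdha (median -0.07) and 10 of 20 Pcdhg genes (0.0092), so that the Pcdhg genes no longer leaned. Without hDISC1AA/+ replicate 1 alone 45 of 65 were lower, with 11 of 21 Pcdhb (median -0.0091) and 7 of 12 non-clustered genes (-0.08). With array weights, which give libraries of wide scatter less weight, 9 of 21 Pcdhb genes were lower and their median was 0.012. The largest of these weights was that of WT replicate 3 (5.23), against 0.94 in WT replicate 2 and 0.24 in WT replicate 1.

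**Figure D2:**
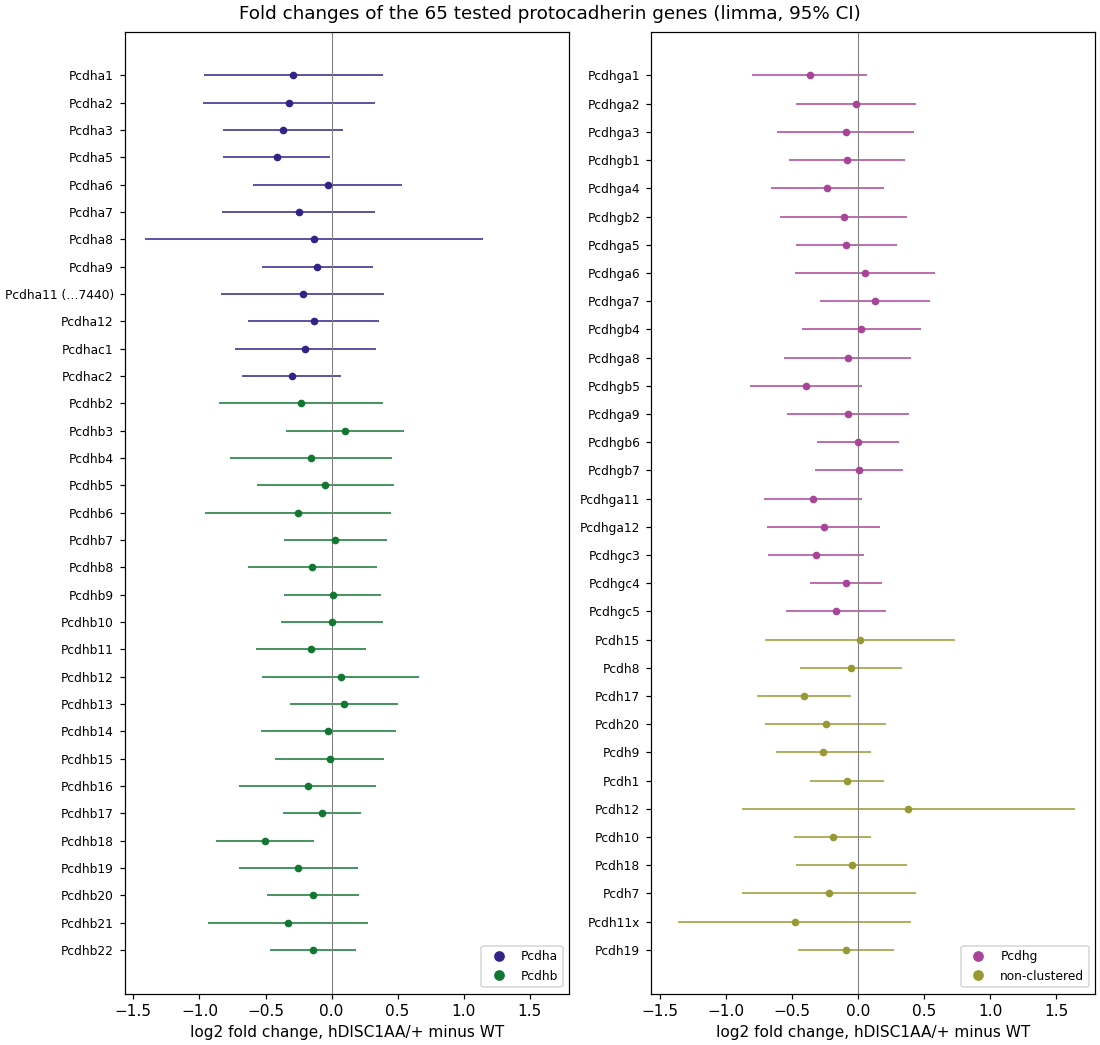
Log2 fold change (hDISC1AA/+ minus WT) of the 65 tested genes with limma's 95% confidence interval, coloured by array. Points lie mostly left of 0 (53 of 65), and the intervals of all but Pcdhb18, Pcdh17 and Pcdha5 include 0.

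The smallest unadjusted p belonged to Pcdhb18, a beta-array gene at chr18:37489465-37494505. It had 365, 315 and 340 normalized counts in WT, and 186, 252, 257 and 272 in hDISC1AA/+ (replicate 1, unnumbered, 3 and 4). All WT libraries were above all hDISC1AA/+ libraries. The log2 fold change was -0.50, with an interval of -0.88 to -0.13 and an adjusted p of 0.974 by limma. It was -0.38 without hDISC1AA/+ replicate 1, the lowest library. Of the 25 genes named here for their p, level, C-type or lone position, 16 kept their sign under every one of the alternatives run, Pcdhb18 among them (-0.56 to -0.33).

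Pcdh17, a delta-2 protocadherin of corticobasal circuits that gathers WAVE complex at axon contacts, lies at chr14:84443563-84539002. It had 4224, 3525 and 2602 normalized counts in WT and 2387, 2571, 2430 and 2811 in hDISC1AA/+. WT replicate 3 fell inside the hDISC1AA/+ range, so the groups overlapped, and WT replicate 1 was the highest. The log2 fold change of -0.41 (interval -0.77 to -0.06) became -0.25 without WT replicate 1. It was -0.11 with array weights, in which WT replicate 3 weighed most.

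Pcdha5 had 295, 242 and 315 normalized counts in WT and 236, 169, 203 and 247 in hDISC1AA/+. Here hDISC1AA/+ replicate 4 exceeded WT replicate 2. The log2 fold change was -0.42 (interval -0.82 to -0.01), and -0.31 without the unnumbered library. Pcdha3, another member of the alpha array, had 155, 193 and 147 counts in WT and 114, 104, 144 and 151 in hDISC1AA/+, with a log2 fold change of -0.37.

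Of the C-type genes, Pcdhac2 had 1863, 1492 and 1759 normalized counts in WT and 1644, 1030, 1546 and 1371 in hDISC1AA/+. The unnumbered library was the lowest and the others overlapped. Its log2 fold change was -0.30 (interval -0.68 to 0.07), and -0.16 without that library. Pcdhgc3 had 1081, 698 and 854 counts in WT and 767, 604, 735 and 678 in hDISC1AA/+. WT replicate 1 was the highest, and the log2 fold change of -0.32 became -0.16 without it. Pcdhgc5 had 5707, 4520 and 5340 in WT and 5350, 3355, 5046 and 4918 in hDISC1AA/+. Only the unnumbered library lay outside the WT range, and the log2 fold change of -0.17 was -0.02 without it, or -0.10 without WT replicate 1. Pcdhgc4 was the steadiest of them, at 485, 492 and 527 in WT and 493, 409, 473 and 510 in hDISC1AA/+, with a log2 fold change of -0.09 (interval -0.37 to 0.18), and -0.03 without the unnumbered library. Pcdhac1 had 103, 142 and 143 counts in WT and 127, 79.9, 109 and 139 in hDISC1AA/+, with a log2 fold change of -0.20 that was -0.04 without the unnumbered library.

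Among the other gamma genes, Pcdhgb5 was the second member without overlap: 246, 193 and 224 normalized counts in WT, and 187, 128, 180 and 183 in hDISC1AA/+. The log2 fold change was -0.39 (interval -0.82 to 0.03), and -0.26 without the unnumbered library. Pcdhga11 had 476, 308 and 384 in WT and 329, 284, 302 and 297 in hDISC1AA/+. WT replicate 1 again led, and its log2 fold change went from -0.34 to -0.18 without it. Pcdhga1 (log2 fold change -0.37) had 156, 107 and 137 counts in WT against 106, 90.3, 103 and 110. Pcdhga12 (-0.26) had 593, 422 and 562 in WT against 469, 323, 455 and 515, with -0.12 without the unnumbered library and -0.41 without WT replicate 2. Both overlapped between genotypes. In the beta array the most abundant gene, Pcdhb9, showed no lean: 504, 521 and 464 counts in WT, 398, 460, 544 and 622 in hDISC1AA/+, and a log2 fold change of 0.01 (interval -0.36 to 0.37).

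The delta-1 members are long transcripts, and 3 of them (Pcdh7, Pcdh9 and Pcdh11x) have a GC content of 36.3% to 45.8%, against 60.7% in Pcdh1. Pcdh1 had 13291, 13307 and 14980 normalized counts in WT and 15087, 10964, 14258 and 12381 in hDISC1AA/+. Its groups overlapped, with a log2 fold change of -0.08 (interval -0.36 to 0.20). Pcdh9 was even in WT at 4248, 4225 and 4047, and in hDISC1AA/+ it spread over 2687, 3232, 3793 and 4452 (log2 fold change -0.26, and -0.14 without hDISC1AA/+ replicate 1). Pcdh7, whose protein binds the phosphatase PP1 and SET, had 5371, 6518 and 5535 in WT and 2722, 5595, 5940 and 6757 in hDISC1AA/+. Replicate 1 stood alone below the others, and the log2 fold change of -0.22 turned to 0.07 without it. The X-linked Pcdh11x gave the widest gap of that library: 1406, 1213 and 1069 in WT, and 388, 1034, 1259 and 1161 in hDISC1AA/+. Its log2 fold change was -0.48 (interval -1.37 to 0.40) with that library and -0.09 without it.

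Among the delta-2 members, Pcdh10 had 15278, 15839 and 14650 normalized counts in WT and 11046, 12355, 15623 and 14881 in hDISC1AA/+. Replicate 1 and the unnumbered library were below all others, and the remaining pair lay within the WT range (log2 fold change -0.19, interval -0.48 to 0.10, and -0.10 without replicate 1). Pcdh8, or arcadlin, which neuronal activity induces and which takes N-cadherin off the surface, had 2268, 1719 and 2218 in WT and 2167, 1680, 2505 and 1668 in hDISC1AA/+, with a log2 fold change of -0.06. Its sign turned in 4 of the 7 omissions of a single library: without the unnumbered library (0.022), hDISC1AA/+ replicate 4 (0.026), WT replicate 1 (0.016) or WT replicate 3 (0.00045). Pcdh19, the X-linked gene of an epilepsy that mostly affects females, had 2262, 2609 and 2470 in WT and 1814, 2285, 2215 and 3010 in hDISC1AA/+. The lowest and the highest value were both hDISC1AA/+, and the log2 fold change was -0.09, or 0.02 without replicate 1. Pcdh18, which binds the reelin adaptor Dab1, had 332, 515 and 400 in WT and 327, 377, 478 and 418 in hDISC1AA/+, with a log2 fold change of -0.05, or 0.05 without hDISC1AA/+ replicate 1, 0.12 without WT replicate 2 and -0.20 without WT replicate 1.

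The last 3 non-clustered genes fall outside the delta groups used here. Pcdh20 had 1054, 972 and 908 normalized counts in WT and 566, 995, 784 and 1040 in hDISC1AA/+, with a log2 fold change of -0.25, or -0.07 without replicate 1. Pcdh15, a part of the tip link of inner-ear hair cells, had 933, 1475 and 1306 in WT and 670, 1558, 1321 and 1654 in hDISC1AA/+. Its log2 fold change was 0.02, and 0.31 without hDISC1AA/+ replicate 1 or -0.18 without WT replicate 1. Pcdh12 had 3.85, 10.9 and 19.6 counts in WT and 9.52, 13.5, 8.67 and 23.7 in hDISC1AA/+. WT replicate 1, lowest in Pcdh12, was also lowest in the summed endothelial and mural markers (3897, with none of the 8 markers at 0), and the log2 fold change of 0.38 was -0.18 without it. The part of those cells in the result was not tested.

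The 40 clustered genes not described singly so far ranged in log2 fold change from -0.33 for Pcdhb21 to 0.13 for Pcdhga7. In WT Pcdhb21 was nearly constant (173, 175 and 179 normalized counts), and in hDISC1AA/+ it ran 89.9, 121, 170 and 202. Pcdhga7 had 322, 349 and 343 in WT and 353, 299, 344 and 511 in hDISC1AA/+. In both genes the spread within hDISC1AA/+ was wider than the distance between genotypes. Relative to its mean Pcdhgb7 varied least of the tested members, from 154 to 178 over the 7 libraries, and was the gamma gene in which the unnumbered library was not the lowest.

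Which library was the lowest differed by array. The unnumbered hDISC1AA/+ library was the lowest of the 7 in 10 of 12 Pcdha and 19 of 20 Pcdhg genes, including 5 of 5 C-type genes, but in 2 of 21 Pcdhb and 1 of 12 non-clustered genes. In all that is 32 of 65, beside 12.5% of all genes. By contrast hDISC1AA/+ replicate 1 was the lowest in 17 of 21 Pcdhb and 9 of 12 non-clustered genes, and in 0 of 12 Pcdha and 1 of 20 Pcdhg genes. That is 27 of 65, beside 24.8% of all genes. At the other end, hDISC1AA/+ replicate 4 was the highest in 29 of 65 members, among them 14 of 21 Pcdhb genes, and in 1823 of the 17670 tested genes.

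The sums over each array show the same libraries. All Pcdha genes together had 3520, 2966 and 3356 normalized counts in WT and 3070, 2028, 2891 and 3008 in hDISC1AA/+. The unnumbered library held 64.7% of the mean of the other 6. All Pcdhg genes together had 13035, 11096 and 12505 in WT and 11860, 8460, 11944 and 12452 in hDISC1AA/+, and the unnumbered library held 69.6% of the mean of the others. Leaving out the dominant Pcdhac2 and Pcdhgc5 gave 65.6% and 72.9%, so the remaining genes of both arrays were low as well.

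All Pcdhb genes together were nearly equal in the WT libraries, at 5924, 5910 and 5924. In hDISC1AA/+ they ran 4299, 5335, 5840 and 6807, so that replicate 1 was below and replicate 4 above every WT library. The non-clustered genes summed to 50669, 51929 and 50204 in WT and to 39870, 42660, 50614 and 50256 in hDISC1AA/+. The unnumbered library held 92.2% of the mean of the others in Pcdhb and 87.2% in the non-clustered genes. Replicate 1 held 72.2% of the mean of the others in Pcdhb and 80.7% in the non-clustered genes, but 104% in Pcdha and 102% in Pcdhg. Pcdh1, the member richest in GC, rose as a share of the non-clustered sum to 37.8% in that library, against 24.6% to 29.8% in the other 6.

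**Figure D3:**
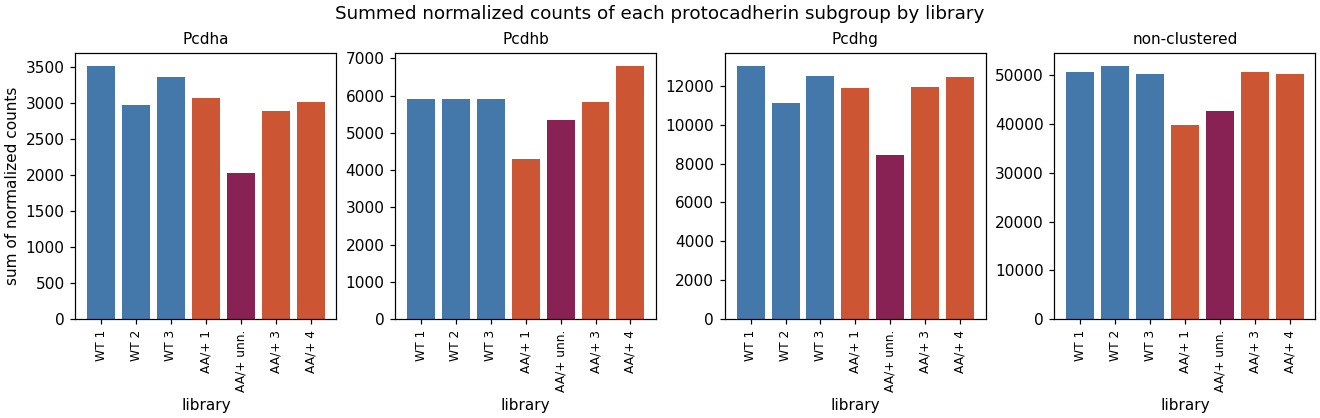
Summed normalized counts of the Pcdha, Pcdhb, Pcdhg and non-clustered genes, 1 bar per library, with axes from 0. The unnumbered hDISC1AA/+ library is lowest in Pcdha (2028) and Pcdhg (8460), and hDISC1AA/+ replicate 1 is lowest in Pcdhb (4299) and in the non-clustered genes (39870).

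**Figure D4:**
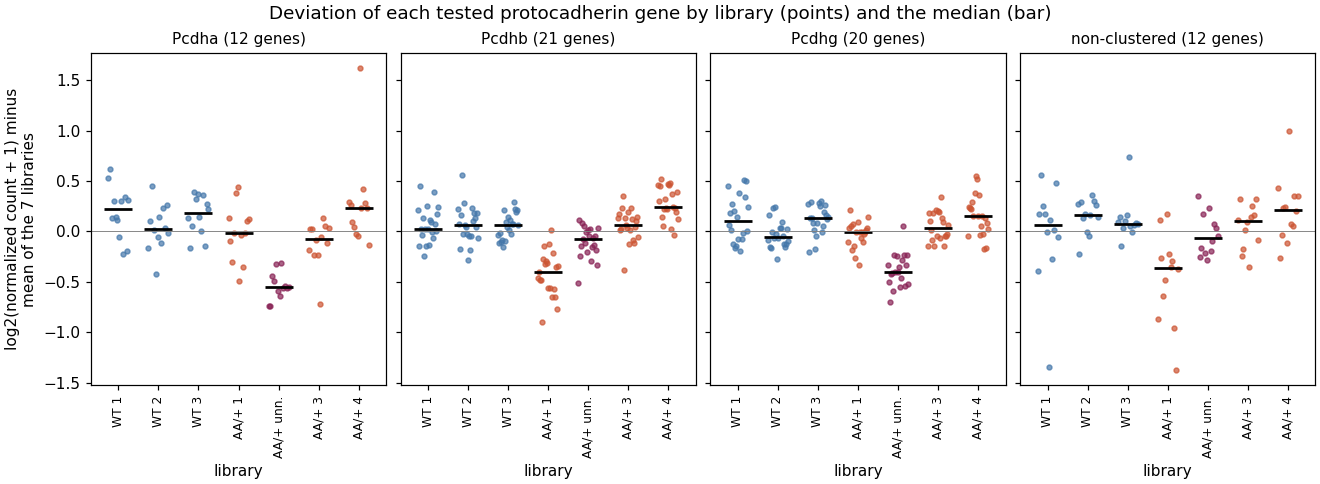
Deviation of each tested gene from its mean over the 7 libraries, on the log2(normalized count + 1) scale, by array and library (points), with the median as a bar. The median of the unnumbered library is -0.55 in Pcdha and -0.41 in Pcdhg, and that of hDISC1AA/+ replicate 1 is -0.41 in Pcdhb and -0.37 in the non-clustered genes.

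Base composition moved with the values of hDISC1AA/+ replicate 1. Across the 65 tested members, the deviation of hDISC1AA/+ replicate 1 rose with the GC content of the longest transcript (Pearson r 0.68, Spearman rho 0.70), from Pcdh11x at 36.3% GC to Pcdh1 at 60.7%. In the unnumbered library the relation ran the other way (r -0.39, rho -0.45), as it did in WT replicate 2 (r -0.39, rho -0.43), where the median deviation was 0.026 in Pcdha and -0.054 in Pcdhg. The points share 1 library and differ in array, and genes are not independent replicates. In the unnumbered library the r within Pcdha, Pcdhb, Pcdhg and the non-clustered genes was -0.18, -0.13, -0.03 and -0.36. In replicate 1 it was 0.21, 0.45, 0.56 and 0.83. The part of base composition in the array deficits was not tested.

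After each library was corrected for GC content and length over all genes, the unnumbered library was still the lowest in 10 of 12 Pcdha and 15 of 20 Pcdhg genes, with median deviations of -0.50 and -0.35, beside 12.4% of all genes. The lowest place of hDISC1AA/+ replicate 1 went from 9 to 6 of 12 non-clustered genes and from 17 to 15 of 21 Pcdhb genes, beside 25.8% of all genes after the correction. In Pcdhg it went the other way, from 1 to 5 of 20 genes, and the unnumbered library went from 1 to 3 of 12 non-clustered genes. The median deviation of replicate 1 moved from -0.37 to -0.21 in the non-clustered genes and from -0.41 to -0.30 in Pcdhb, but from -0.0053 to -0.19 in Pcdhg. The corrected comparison passed 0 members and had 55 of 65 lower in hDISC1AA/+.

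**Figure D5:**
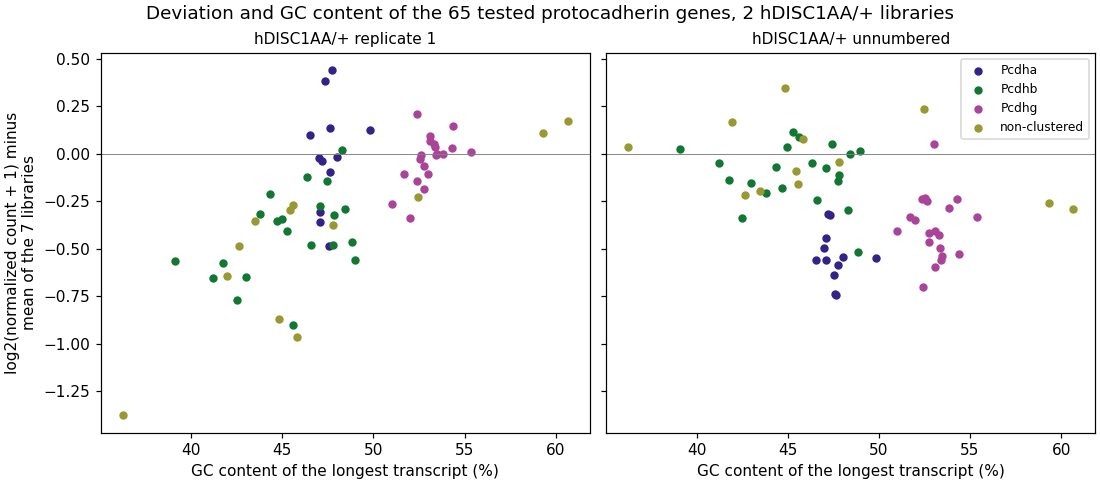
Deviation from the mean of the 7 libraries (log2 scale) against GC content of the longest transcript for the 65 tested genes, in hDISC1AA/+ replicate 1 and in the unnumbered library. In replicate 1 the points rise with GC content (r 0.68). In the unnumbered library they fall (r -0.39), and the medians of the Pcdha and Pcdhg genes are below 0.

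Values of 2 genes beside the arrays, chosen after they were seen, are given for comparison. Taf7, between the beta and gamma arrays at chr18:37640491-37644204, had 314, 314 and 223 normalized counts in WT and 249, 272, 259 and 286 in hDISC1AA/+. Its value in the unnumbered library, 272, lay inside the range of the others. Diaph1, on the far side of the gamma array at chr18:37843601-37935476, had 3242, 3369 and 3529 in WT and 3647, 3035, 3388 and 3098 in hDISC1AA/+. The unnumbered library was the lowest here too, close to replicate 4. The neuronal markers summed to 268270 in that library, under the WT range of 278637 to 291977 and above replicate 1 at 258398, and none of the 8 was at 0. The part of cell composition in the array deficits was not tested.

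Genes that act on or with protocadherins were read from 5 lists, and 0 of their 53 genes passed in the same fit, with an adjusted p of at least 0.974 (limma). Of 11 genes of CTCF and cohesin, which loop enhancers to the clustered promoters, 10 were lower in hDISC1AA/+ and 1 higher, with a median of -0.14. These were 8 and 3 without hDISC1AA/+ replicate 1, with a median of -0.06, and after the GC and length correction 6 and 5, with a median of -0.02. The cohesin subunit Rad21 had 5662, 4935 and 4714 normalized counts in WT and 3877, 4645, 4645 and 4767 in hDISC1AA/+ (log2 fold change -0.19, or -0.12 without replicate 1 and -0.11 without WT replicate 1). The groups overlapped, and replicate 1 was the lowest. The subunit Stag2 gave -0.36 and the cohesin regulator Pds5b -0.21, but -0.11 and -0.07 without replicate 1. Ctcf itself had 2639, 3081 and 2858 in WT and 2665, 2688, 3134 and 2985 in hDISC1AA/+ (log2 fold change 0.00). In the unnumbered library the CTCF and cohesin genes summed to 32468, against 26417 in replicate 1 and 33703 to 36408 in the other 5.

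Of 13 genes of DNA methylation and silencing, 7 were higher and 6 lower, with a median of 0.02. The smallest p values belonged to the methylcytosine oxidases Tet1 (log2 fold change -0.26) and Tet3 (-0.18) and to the chromatin remodeller Atrx (-0.29). Without hDISC1AA/+ replicate 1, in which Tet1 and Atrx were lowest, these were -0.11, -0.15 and -0.05. Dnmt3b, the methyltransferase of clustered promoters in the embryo, was at 20.7 to 45.3 normalized counts.

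Of 9 WAVE complex genes, which several protocadherins recruit to branch actin, 7 were lower and 2 higher (median -0.07). These were 5 and 4 without the unnumbered library (median -0.06) and 8 and 1 without hDISC1AA/+ replicate 1 (-0.05). After the GC and length correction they were 6 and 3 (-0.08). Wasf3, a WAVE subunit, had 5771, 4559 and 5329 normalized counts in WT and 4328, 3975, 4306 and 4407 in hDISC1AA/+. All WT libraries were above all hDISC1AA/+ libraries, with a log2 fold change of -0.29 (interval -0.52 to -0.06) and an adjusted p of 0.974 by limma. Nckap1 gave -0.17 and Abi2 -0.20, or -0.13 and -0.05 without hDISC1AA/+ replicate 1. The list summed lowest in the unnumbered library, 106360 against 113768 to 122868.

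Of 13 cytoplasmic partners and signalling genes, 8 were lower and 5 higher (median -0.06). Those with the smallest p were the formin Fmnl2 (log2 fold change -0.24), the N-cadherin gene Cdh2 (-0.13) and the GTPase gene Rac1 (0.09). They gave -0.10, -0.11 and 0.05 without hDISC1AA/+ replicate 1. Of 7 genes of proteolytic processing, the ADAM and gamma-secretase cleavage that releases protocadherin fragments, 3 were lower and 4 higher (median 0.02). Adam10 gave -0.23, Aph1a 0.20 and Aph1b -0.17. Without hDISC1AA/+ replicate 1 these were -0.10, 0.10 and -0.03, with 5 of the 7 genes lower, and without WT replicate 1 Aph1a was 0.02.

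The cell-type lists moved with WT replicate 1. In hDISC1AA/+ 8 of 8 oligodendrocyte, 6 of 6 oligodendrocyte precursor, 7 of 7 astrocyte and 5 of 6 microglial markers were lower, and 8 of 8 endothelial and mural and 6 of 6 meningeal fibroblast markers were higher, with 0 passing the test. Without WT replicate 1, 6 of 8 oligodendrocyte, 4 of 6 precursor, 4 of 7 astrocyte and 5 of 6 microglial markers were lower, and 4 of 8 endothelial and mural and 3 of 6 meningeal markers were higher. Neuronal markers split 3 higher and 5 lower (median -0.05). Summed astrocyte markers ran from 170790 to 258295 in WT and from 150312 to 185612 in hDISC1AA/+, summed precursor markers from 7651 to 11632 and from 7634 to 9426, summed microglial markers from 9238 to 12852 and from 8428 to 10215, and summed meningeal markers from 4489 to 7842 and from 5488 to 9478. No marker of these lists was at 0 in any library. WT replicate 1 was the highest library in 17 of 65 protocadherin genes, among them 5 of 12 Pcdha genes. The share of members was no larger than that of all tested genes, 4975 of 17670. Without WT replicate 1, 51 of 65 members were lower in hDISC1AA/+ with a median of -0.15.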

How the data were processed

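RNA sequencing values of 7 libraries were used. The authors deposited a signal proportional to reads, namely read counts that had been divided by the library's size factor: every value was a whole multiple of 1 step within 0.01 reads (100% of values), which gave the reads back. Per the submitters' processing notes, the tools included HTSeq 0.6.1, HISAT2 2.1.0, DESeq2 1.26.0 and Trimmomatic 0.39, on build mm10, with no role named. Annotation and strand setting are not stated there. Libraries were made with a NEBNext Ultra RNA kit, per the labels' protocols. Symbols, exons and coordinates came from GENCODE M21 (GRCm38), which held 42459 of the 43626 identifiers, and promoters from RefSeq. Another 3 genes on broken lines were left out.

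Genes with at least 10 normalized counts in at least 3 libraries (17670) were tested with two-sided limma 3.58.1 (R 4.3.3; robust, with an intensity trend) after adding 1 and taking log2, and p-values were adjusted by Benjamini-Hochberg, with a threshold of 0.05. Fold changes are hDISC1AA/+ minus WT, and this scale understates those of low genes. Tests with edgeR 4.0.16 and DESeq2 1.42.0 on the recovered reads, TMM scaling, array weights, a GC and length correction (mgcv 1.9.3), other pseudocounts and filters, and omissions of libraries were alternatives. The fit was tested on simulated counts. No pair of libraries was a copy (chi-square per degree of freedom 11.5 to 177). Members and lists were chosen with earlier results of these data known. Named were the 12 tested members with the smallest p, the highest per kilobase of each array, all non-clustered and C-type members, and up to 3 genes of a pathway list by p; Ctcf, Dnmt3b, Disc1, Pcdhb21, Pcdhga7, Pcdhgb7 and the genes with low values or overlaps were named after their values were seen.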

Additional observations from a re-analysis of the deposited data

Results flagged for a closer look

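In the group of 4 hDISC1AA/+ libraries, 69 values were examined for a library set apart from the others by a gap that, as a share of the group's range, exceeded Dixon's 95% critical value, and 6 did. Chance passes that limit in about 1 of 20 groups. Pcdha8 had 53.5 normalized counts in replicate 4 against 9.75 to 11.6 in the other 3 (gap 0.957 of the range). Pcdhb13 had 295 in replicate 4 against 197 to 208 (0.89), and Pcdhga5 had 513 in replicate 4 against 335 to 358 (0.875). The unnumbered library was low in the other cases. It had 297 in Pcdhga3 against 521 to 567 (0.83), 128 in Pcdhgb5 against 180 to 187 (0.876), and 8460 in the sum of all Pcdhg genes against 11860 to 12452 (0.852). These values share libraries and exons and are not independent.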

How the results depend on the processing

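No gene passed the threshold under any alternative run. The smallest adjusted p was 0.392, in limma with array weights, where WT replicate 3 weighed most. At an unadjusted p under 0.05 that fit had 8 of 65 members, beside 10.3% of all genes, and the GC and length correction 5 of 65, beside 2.79%, against 3 of 65. No paired analysis was possible because replicate numbers here follow record order alone and tie no WT library to a hDISC1AA/+ library. The number of members lower in hDISC1AA/+ was 53 of 65, and 44 to 55 under the other tools, scalings, filters and pseudocounts. Those include 51 of 68 with DESeq2, 55 of 68 with no filter and 52 of 63 with a filter of 50 normalized counts. Without single libraries it was 42 to 60 of 65. It was 27 of 65 without hDISC1AA/+ replicate 1 and the unnumbered library together, where the Pcdhb median was 0.14. Over all genes, 14051 were lower with DESeq2 and 14042 with no filter, against 9217, because more genes were tested. Per kilobase of unshared bases Pcdhac2 reached 505 and Pcdhgc5 1062 normalized counts, through the shorter length.

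Of 25 named members 9 took another sign under some of the alternatives, and the cause was not tested. With the GC and length correction the log2 fold change of Pcdhb9 was -0.011 and of Pcdh18 0.000623. With array weights it was -0.33 for Pcdh12, 0.031 for Pcdh18 and 0.034 for Pcdh7. Without WT replicate 1 and hDISC1AA/+ replicate 1 together it was -0.052 for Pcdh12, 0.017 for Pcdh7 and 0.011 for Pcdh11x. Without hDISC1AA/+ replicate 1 and the unnumbered library together it was 0.13 for Pcdh18, 0.13 for Pcdh7 and 0.080 for Pcdh19. Without single libraries it ran from -0.10 to 0.12 for Pcdhb9, -0.15 to 0.002506 for Pcdh1, -0.18 to 0.31 for Pcdh15, -0.18 to 0.026 for Pcdh8, -0.18 to 0.86 for Pcdh12, -0.20 to 0.12 for Pcdh18, -0.37 to 0.071 for Pcdh7, and -0.22 to 0.021 for Pcdh19. Where an omission left 2 WT libraries, limma pooled the spread. Counting error is widest, relative to the value, for Pcdha8, Pcdh12 and the 4 untested members, which had the fewest reads, and the effect of the greater depth of WT replicate 1 was not tested.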
